A study of Mus musculus with 48 samples.

Results

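The response of hippocampal CA tissue to a brief open field exposure was measured in wild-type male mice of the Glu-CB1 line by RNA-sequencing. The 5 libraries labelled Glu-CB1-WT with open field exposure were compared with the 5 labelled Glu-CB1-WT in the basal condition, which makes 10 of the 48 libraries of the series, in 2 of its 8 groups. All 10 mice carry the strain label nex-cre x CB1f/f and an age of 8 weeks. In this line, Cre driven by nex1 regulatory elements deletes the cannabinoid receptor CB1 from glutamatergic neurons of the knockouts (Glu-CB1-KO). The wild types are their littermates, and the sources used here do not say whether a wild type carried the floxed allele or Cre. Basal mice came from the home cage. Open field mice explored a white box for 5 min, and their tissue was taken an hour later. Handling, the new arena and the time away from the home cage cannot be told apart in this design. Each label also holds a serial number, which within each line is lower for every basal than for every open field library. What it counts is not given, and an effect of that order cannot be told apart from the open field. Animals were selected for sequencing by tissue purity, by behavior and by their activity response, for which *Arc* was measured by RT-qPCR. Hence *Arc*, and genes that move with it, are not an independent measure of the response.

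Neuronal activity opens calcium channels and activates kinases that phosphorylate transcription factors already bound to DNA, among them CREB and the serum response factor. These switch on immediate early genes within minutes, without new protein synthesis. Many of those genes, such as the Fos and Egr families, encode transcription factors that act on a later set of effector genes for synapses and signaling, while others encode phosphatases and adaptors that end the kinase signal. Transcripts of the first set decline quickly, so that their level an hour after a stimulus depends on when the neurons were active. A new environment also releases corticosterone, which acts on a separate set of genes through the glucocorticoid receptor.

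The values are gene counts, scaled to counts per 1000000 counts (CPM) with TMM factors. CPM does not correct for gene length, so that levels are compared between mice and not between genes. The libraries held from 26088870 to 34060720 counted reads (median 30081285), and between 17655 and 17936 genes had a count. Each library is 1 mouse. Markers of CA1 pyramidal cells summed to between 691 and 905 CPM over 8 of 8 genes, and those of CA3 and CA2 to between 546 and 762.97 CPM over 10 of 10 genes. Markers of dentate granule cells, a region that was to be removed, summed to between 224 and 384 CPM over 10 of 10 genes, with no marker at 0. Their range was 224 to 384 CPM in basal and 259 to 383 CPM in open field mice. As this is bulk tissue, fewer cells of a type and less RNA per cell cannot be told apart.

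In the open field mice, the 3 largest differences of all genes were those of the immediate early transcription factors *Egr2*, *Fos* and *Fosb*. With *Egr1* and *Egr4*, they were between 0.81 and 2.62 higher on the log2 scale, and *Fosb*, *Egr2* and *Egr4* were higher in each open field mouse than in any basal mouse. No gene reached the threshold. Of 14991 genes tested by edgeR's quasi-likelihood test, 0 (0%) had a Benjamini-Hochberg adjusted p under 0.05, and the lowest was 0.0825, for *Fosb*. At an unadjusted p under 0.05 there were 463 genes with a higher level (3.09%) and 367 with a lower level (2.45%) after the open field, 830 together, while a share of 0.05 of all genes is 749.55. DESeq2 called 22 of the 14991 genes (0.147%), of which 19 were higher, and it gave no adjusted p for 2325 genes. The 5 and 5 values did not overlap for 96 genes that were higher (0.64%) and 82 that were lower (0.547%) after the open field. With the values of a gene in random order, the groups would be apart, in either direction, in a share of 0.00794 of cases. Many of the 14991 genes would thus be without overlap by chance, and a lack of overlap alone does not mark a response. Since none passed the edgeR test among these 10 libraries, genes are called higher or lower by their estimates alone.

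The stretches of 250 bases before the RefSeq start sites (GRCm38.p6, the mm10 assembly) are shown for the 4 genes with the smallest p among the immediate early transcription factors. Capitals mark the core TGACG of the cAMP response element (read as CGTCA on the other strand), the Egr factors' own element GCGNGGGCG, and the CArG box, to which serum response factor binds. The *Fosb* stretch lies at chr7:19310046-19310295 on the minus strand, that of *Egr2* at chr10:67537619-67537868 on the plus strand, that of *Fos* at chr12:85473640-85473889 on the plus strand, and that of *Egr4* at chr6:85513590-85513839 on the minus strand.
Fosb: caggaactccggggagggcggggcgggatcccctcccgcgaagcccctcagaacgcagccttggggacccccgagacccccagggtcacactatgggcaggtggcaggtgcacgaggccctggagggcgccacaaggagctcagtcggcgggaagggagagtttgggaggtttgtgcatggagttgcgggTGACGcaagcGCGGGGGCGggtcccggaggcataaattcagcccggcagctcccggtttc
Egr2: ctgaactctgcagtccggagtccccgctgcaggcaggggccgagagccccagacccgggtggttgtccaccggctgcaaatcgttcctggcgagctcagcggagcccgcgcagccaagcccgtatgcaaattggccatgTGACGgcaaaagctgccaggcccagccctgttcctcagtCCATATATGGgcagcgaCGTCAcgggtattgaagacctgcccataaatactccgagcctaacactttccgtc
Fos: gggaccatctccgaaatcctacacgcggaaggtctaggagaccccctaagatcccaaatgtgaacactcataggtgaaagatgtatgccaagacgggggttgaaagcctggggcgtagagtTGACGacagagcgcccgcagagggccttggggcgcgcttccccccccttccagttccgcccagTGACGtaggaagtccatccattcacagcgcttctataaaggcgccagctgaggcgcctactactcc
Egr4: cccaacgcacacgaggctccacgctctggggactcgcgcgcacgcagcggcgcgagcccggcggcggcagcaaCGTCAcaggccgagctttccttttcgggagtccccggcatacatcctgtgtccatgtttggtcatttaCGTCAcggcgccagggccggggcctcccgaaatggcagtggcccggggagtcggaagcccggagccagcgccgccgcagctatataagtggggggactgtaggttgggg
Each of the 4 holds the TGACG core, which is found once in *Fosb* and at 2 places in each of the others. The *Egr2* stretch has the only CArG box of the 4, and the *Fosb* stretch the only Egr element. Over the 20 of 25 immediate early transcription factors with a matched stretch, TGACG was present in 14 (70.0%), against 2933 (26.6%) of the 11043 matched stretches of all genes tested. The Egr element was in 7 of the 20 (35%), against 9.0% of all. Among the 76 matched stretches of the 96 higher genes, 26 (34.2%) held TGACG, and among the 62 of the 82 lower genes 19 (30.6%). The Egr element was in 7.9% of the former and 12.9% of the latter. Over the 20, the full element TGACGTCA was in 1 (5.0%, against 2.7% of all) and the CArG box in 1 (5.0%, against 1.1%). The AP-1 element TGANTCA and the glucocorticoid receptor half-site AGAACA were in 0, against 4.1% and 10.4% of all. TGACG was chosen with the sequences in view, it is short, and a match describes the letters of this window and is not a binding site.

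*Fosb*, a subunit of the dimeric factor AP-1, had 3.72, 6.23, 4.82, 5.61 and 5.38 CPM in basal replicates 1 to 5 and 12.0, 20.3, 18.6, 12.2 and 9.56 CPM in open field replicates 1 to 5. The groups did not overlap, and the lowest open field mouse was above the highest basal mouse. The log2 difference was 1.49 (standard error 0.20), with an adjusted p of 0.0825 by edgeR. *Egr2*, a zinc finger factor, had 0.894, 1.90, 0.637, 1.36 and 0.802 CPM in basal mice and 7.52, 6.90, 11.5, 6.58 and 2.15 CPM after the open field. The groups were again apart, though open field replicate 5 lay just above basal replicate 2, and the log2 difference was the largest of all genes tested, 2.62 (standard error 0.39, adjusted p = 0.110 by edgeR). *Egr4*, a neuronal member of the same family, had between 5.58 and 6.83 CPM in basal mice and 10.9, 10.4, 14.1, 9.01 and 7.75 CPM after the open field. All 5 open field mice lay above the basal mice, by a log2 difference of 0.81 (standard error 0.14, adjusted p = 0.216 by edgeR).

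*Fos*, the best known marker of active neurons, had 2.04, 5.06, 3.03, 3.10 and 2.56 CPM in basal mice and 14.8, 12.3, 27.5, 10.4 and 4.70 CPM after the open field. The other open field mice lay well above the basal range, but open field replicate 5 lay below basal replicate 2. Its log2 difference was 2.13 (standard error 0.39, adjusted p = 0.216 by edgeR). *Egr1*, which is abundant in resting hippocampus, had 87.9, 114, 76.4, 89.5 and 66.0 CPM in basal mice and 172, 133, 215, 149 and 99.97 CPM after the open field, so that again only replicate 5 entered the basal range. The log2 difference was 0.83 (standard error 0.18, adjusted p = 0.380 by edgeR). *Nr4a1*, an orphan nuclear receptor, showed the same arrangement of mice, with 39.2 to 49.2 CPM in the basal state and 90.2, 56.9, 112, 62.3 and 47.4 CPM after the open field. *Junb*, which pairs with Fos proteins, had a mean of 16.98 ± 2.26 CPM (SD, n = 5) in basal and of 23.99 ± 6.36 CPM (n = 5) in open field mice. *Npas4*, a neuron-specific factor induced by calcium influx, had 24.05 CPM in open field replicate 3 and between 8.81 and 10.8 CPM in the other open field mice, which lies within its basal range of 7.33 to 13.4 CPM.

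**Figure D1:**
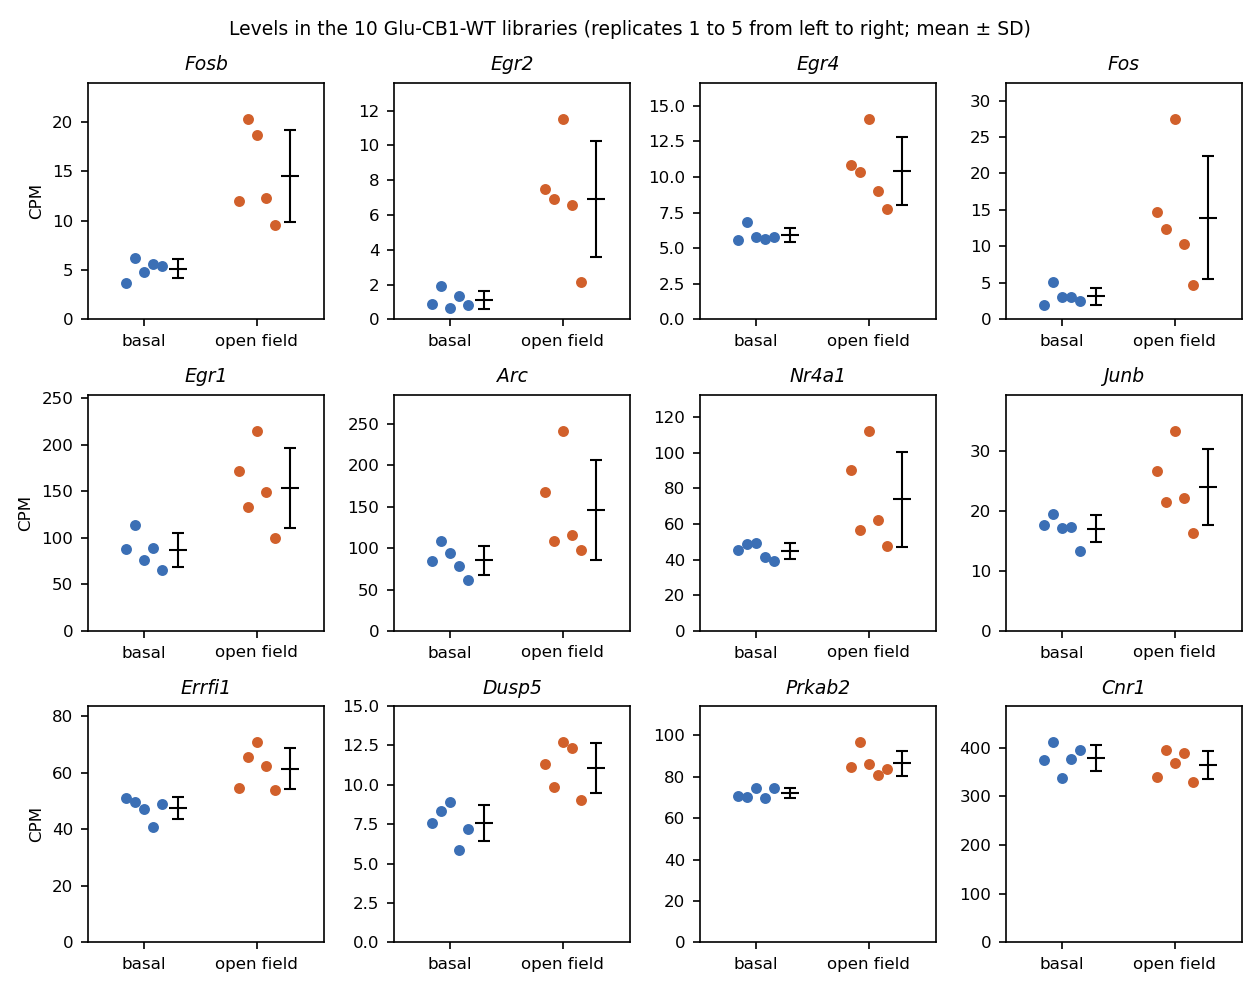
Levels (CPM, vertical axes from 0) of 12 genes in the 10 Glu-CB1-WT libraries, with basal mice in blue and open field mice in orange, replicates 1 to 5 from left to right, and mean ± SD in black. *Fosb*, *Egr2*, *Egr4*, *Errfi1*, *Dusp5* and *Prkab2* do not overlap between the groups, while in *Fos*, *Egr1*, *Arc*, *Nr4a1* and *Junb* open field replicate 5 lies within the basal range, and the groups overlap throughout for *Cnr1*, the CB1 gene.

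Of 26 listed immediate early transcription factors, 25 were tested, and 22 of them had a higher and 3 a lower level after the open field, with a median log2 difference of 0.44. The median of all 14991 genes was -0.0020, and 7313 of them were higher. At an unadjusted p under 0.05, 3.09% of all genes were higher and 2.45% lower, and 0.64% were higher without overlap. These shares are also the background for the counts of the other lists below. The 14 members with an unadjusted p under 0.05 were all higher, and 4 members did not overlap between the groups. Beside *Fosb*, *Egr2* and *Egr4*, the fourth was *Maff*, a small Maf protein, at 0.325 to 0.455 CPM in basal and 0.472 to 0.946 CPM in open field mice, which is a low level. The 3 members with a lower estimate were *Jun*, *Jund* and *Klf6*, whose log2 differences were between -0.12 and -0.03.

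The mice differed from each other in these genes. Over the 25 factors, the mean log2 level above the basal mean was 0.52 in open field replicate 1, 0.53 in replicate 2, 0.90 in replicate 3, 0.38 in replicate 4 and 0.06 in replicate 5. In basal mice it lay between -0.08 and 0.14. Replicate 3 had the highest level of the 5 open field mice for 15 of the 25 factors and replicate 5 the lowest for 19. Replicate 3 was above every basal mouse for 22 factors, and replicate 5 for 5 of them. Without open field replicate 5, edgeR called 4 genes, *Egr2*, *Fosb*, *Fos* and *Egr4*, while it called 0 without any one of the other 9 libraries.

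**Figure D2:**
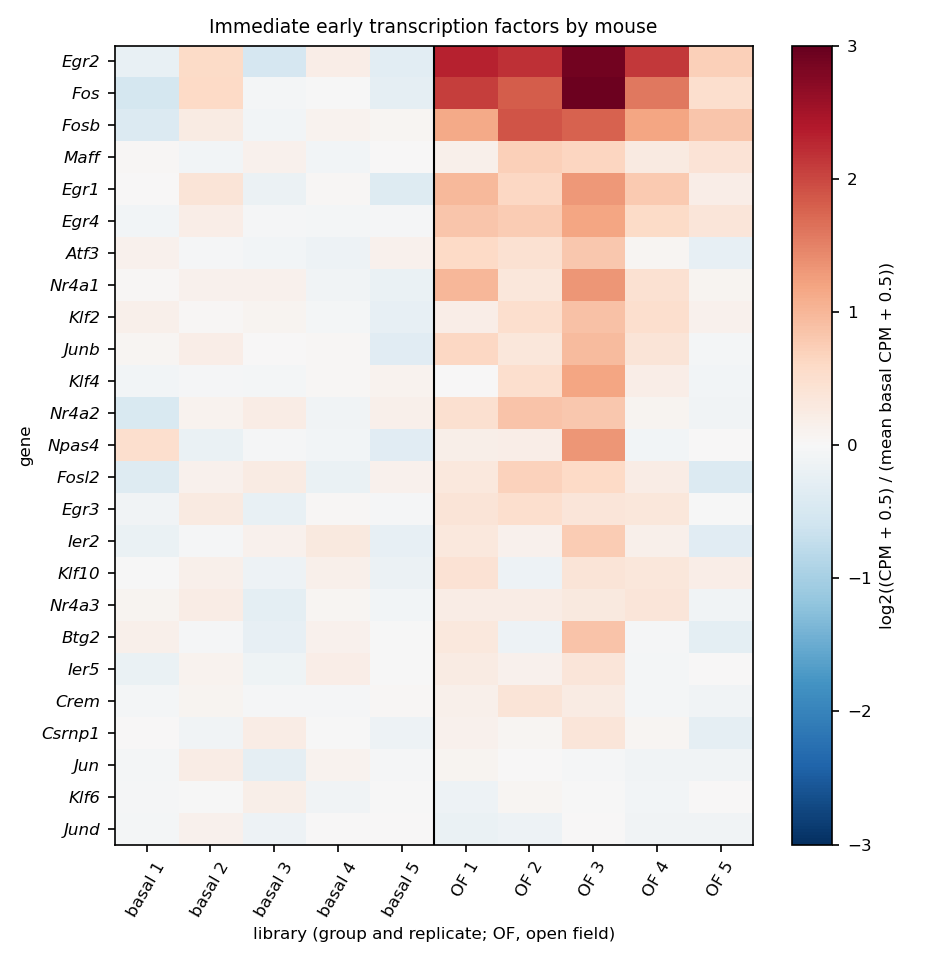
Each row is 1 of the 25 immediate early transcription factors tested, ordered by the log2 difference, and each column 1 of the 10 libraries (OF, open field). Color gives log2 of (CPM + 0.5) over (mean basal CPM + 0.5), from blue (lower) to red (higher): the upper rows are red in open field replicates 1 to 4, most so in replicate 3, and pale in replicate 5.

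Effector genes of activity, which act at synapses or in signaling, differed less. Of 30 tested, 25 were higher, with a median log2 difference of 0.13, and 11 of them had an unadjusted p under 0.05, as did 1 of the 5 lower ones. *Arc*, whose protein acts on AMPA receptor uptake, had 85.0, 109, 93.6, 78.0 and 61.6 CPM in basal mice and 168, 109, 242, 115 and 97.5 CPM after the open field. Replicates 1 and 3 stood clear of the basal mice, whereas replicates 2, 4 and 5 lay near or within their range. The log2 difference of *Arc* was 0.77 (standard error 0.23, adjusted p = 0.604 by edgeR), and a two-sided exact permutation test of the log2 levels gave p = 0.0238, where 0.00794 is the smallest it can give. This gene served in selecting the animals.

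Among the other effectors, the differences were smaller. *Tiparp*, a mono-ADP-ribosyltransferase, had 24.2, 20.9, 21.05, 21.6 and 18.9 CPM in basal and 28.1, 25.2, 33.4, 27.6 and 26.7 CPM in open field mice. *Rasl11b*, a small GTPase, had 54.7 to 71.2 CPM in basal and 76.2 to 81.8 CPM in open field mice. *Gadd45b*, which takes part in DNA demethylation, had 5.69 to 6.91 CPM in basal and 7.39 to 12.2 CPM in open field mice. These 3 effectors did not overlap between the groups, with log2 differences of 0.40, 0.30 and 0.44. *Bdnf*, the neurotrophin, had 50.7 ± 4.35 CPM (SD, n = 5) in basal and 55.6 ± 6.44 CPM (n = 5) in open field mice, with a log2 difference of 0.13 (95% interval -0.05 to 0.31). *Homer1*, a scaffold of glutamate receptors, and *Ptgs2*, the inducible cyclooxygenase, had log2 differences of 0.14 and 0.04, and their groups overlapped.

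Inhibitors that act back on the MAP kinase pathway followed. Of 18 tested, 14 were higher, with a median of 0.04, and 5 had an unadjusted p under 0.05, all higher. *Errfi1*, an inhibitor of the EGF receptor, had 51.0, 49.7, 47.04, 40.95 and 48.9 CPM in basal and 54.7, 65.5, 70.9, 62.6 and 53.7 CPM in open field mice. *Dusp5*, a nuclear phosphatase of ERK, had 5.88 to 8.92 CPM in basal and 9.02 to 12.7 CPM in open field mice. Both were without overlap, with log2 differences of 0.37 and 0.54. *Dusp6*, the cytoplasmic ERK phosphatase, had 59.1 to 70.9 CPM in basal mice and 90.3, 71.4, 101, 77.5 and 68.6 CPM in open field mice, so that only replicate 5 lay within the basal range.

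Glucocorticoid-induced genes were higher for 23 of 26 tested, with a median log2 difference of 0.12. Of these, 9 had an unadjusted p under 0.05 and 1, *Errfi1*, which also belongs to the MAP kinase list, did not overlap. *Per1*, a clock gene that the glucocorticoid receptor and CREB both act on, had 80.1, 63.6, 91.2, 71.9 and 54.1 CPM in basal and 110.5, 79.2, 122, 92.1 and 91.3 CPM in open field mice. *Tsc22d3* (GILZ), one of the defining targets of the receptor, had 76.4, 44.9, 93.5, 47.8 and 40.7 CPM in basal and 74.9, 88.9, 87.6, 72.1 and 97.1 CPM in open field mice. Its basal mice formed a high pair, replicates 1 and 3, within the open field range, and a low group of 3 below that range. That pair belongs to 4 libraries with a low number at the end of their labels, which stand apart in the components described further on. Among those 4 libraries, 2 of each group, 10 of the 26 glucocorticoid-induced genes were higher, with a median log2 difference of -0.03. Among the other 6 libraries, 3 of each group, 25 of 26 were higher, with a median of 0.31. Of all 14991 genes, 7501 were higher in the 4 and 7288 in the 6. These sets were chosen after the components were seen, and whether their responses differ was not tested. The difference of *Tsc22d3* was 0.01 in the 4 and 0.89 in the 6, and that of *Per1* was 0.23 and 0.61. *Fkbp5*, the co-chaperone of the receptor, had 78.7 ± 5.52 CPM (SD, n = 5) in basal and 86.6 ± 2.99 CPM (n = 5) in open field mice. Of 19 clock genes, 14 were higher, with a median of 0.07, and none was without overlap.

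Chaperones and genes of the unfolded protein response were higher for 20 of 23 tested, with a median of 0.14, and 7 of these had an unadjusted p under 0.05. One mouse stood out in them. *Hspa5* (BiP), the main chaperone of the endoplasmic reticulum, had 209, 236, 216, 196 and 198 CPM in basal mice and 240.4, 394, 243, 230.0 and 219.9 CPM after the open field. Replicate 2 alone was far above the basal mice, and it had the highest level of the 5 open field mice for 16 of the 23 genes. This is not the mouse with the highest immediate early genes, which was replicate 3. *Herpud1* and *Creld2*, both of the endoplasmic reticulum, were without overlap, at 38.6 to 44.2 against 45.4 to 52.6 CPM and at 9.12 to 10.2 against 10.8 to 15.3 CPM.

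Genes of transmission differed little. GABA receptors and GABA synthesis genes were lower for 17 of 18 tested, but by small amounts, from -0.13 to 0.00 on the log2 scale, with a median of -0.07, and 0 of them had an unadjusted p under 0.05. Glutamate receptors were lower for 15 of 22, with a median of -0.05, and 2, *Grik1* and *Grin3a*, had an unadjusted p under 0.05. Interneuron markers were also lower for 9 of 11, with a median of -0.05, and summed to between 1056 and 1146.85 CPM in basal and between 978 and 1144 CPM in open field mice. Whether they bear on the GABA genes was not tested. Of 13 tested genes of the endocannabinoid system, 12 were higher, with a median of 0.04, and 0 had an unadjusted p under 0.05. *Cnr1* itself had 374, 411, 337, 376 and 394 CPM in basal and 339, 396, 369, 389 and 329 CPM in open field mice, with a log2 difference of -0.06 (95% interval -0.19 to 0.08).

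Growth factors and their receptors, neuropeptide precursors, and CREB coactivators with cAMP signaling genes had medians of -0.0048, -0.0036 and -0.0012. Among the peptides, *Npy* and the CRH binding protein gene *Crhbp* had log2 differences of -0.12 and -0.20, with 95% intervals that hold 0. *Sik1*, a kinase that restrains CREB coactivators, had 6.85 ± 1.51 CPM (SD, n = 5) in basal and 10.4 ± 3.43 CPM (n = 5) in open field mice. *Adcy8*, a calcium-activated adenylyl cyclase, went the other way, with 22.7 ± 1.97 CPM (n = 5) in basal and 18.8 ± 1.55 CPM (n = 5) in open field mice. Both had an unadjusted p under 0.05, and neither passed adjustment.

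**Figure D3:**
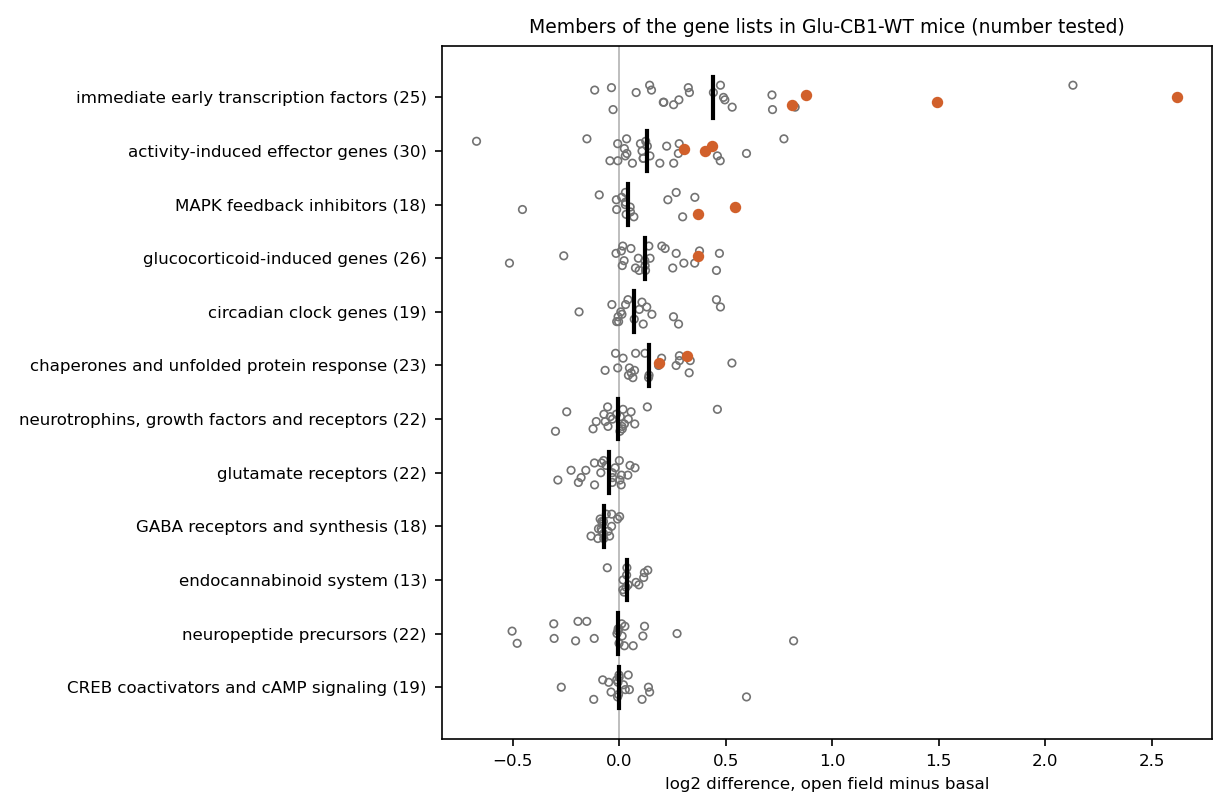
Log2 difference between open field and basal mice for the tested members of 12 gene lists, with the number tested in parentheses. Filled orange points are members whose 5 open field and 5 basal values do not overlap, open grey points those that overlap, and black bars the medians, which reach 0.44 for the immediate early transcription factors and lie between -0.07 and 0.14 for the other lists.

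Outside the lists, DESeq2 called further genes, and some are named here because of these calls. *Prkab2*, a regulatory subunit of the energy sensor AMPK, had 70.8, 70.4, 74.6, 69.7 and 74.6 CPM in basal and 84.8, 96.7, 86.3, 81.0 and 83.6 CPM in open field mice. *Zfp189*, a zinc finger factor, had 31.3 to 33.8 CPM in basal and 37.2 to 41.1 CPM in open field mice, and *Vcl*, which encodes the adhesion protein vinculin, 67.8 to 74.3 and 79.2 to 86.5 CPM. The gaps between the groups were small against the levels, with log2 differences of 0.26, 0.22 and 0.19. *Tnfrsf25*, a death receptor of lymphocytes, had 15.3, 10.9, 14.7, 12.2 and 11.3 CPM in basal and 25.3, 16.9, 29.6, 17.8 and 18.7 CPM in open field mice. *Dok3*, an adaptor of immune cells, had 4.83 to 6.19 CPM in basal and 7.08 to 7.52 CPM in open field mice. Microglia markers were higher for 9 of 10, with a median of 0.06, and summed to between 392 and 466 CPM in basal and between 411 and 517 CPM in open field mice. Their part in these levels was not tested.

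Of the 22 genes DESeq2 called, 3 were lower after the open field: *Etv4*, *Zfp867* and *Zfp941*. *Etv4*, an ETS factor downstream of growth factor signaling, had 7.55, 8.59, 8.55, 8.47 and 9.12 CPM in basal and 6.95, 6.34, 6.36, 5.86 and 5.23 CPM in open field mice. *Zfp867* had 5.73 to 6.79 and 4.21 to 5.01 CPM. Both pairs of groups were apart, each with a log2 difference of -0.46. All 22 genes have the same direction in both tools, and 21 of them, all but *Fos*, do not overlap. Both tools used the same counts, so that shared direction and separation are no independent support for the calls. The 82 genes that were lower without overlap had a median level of 8.86 CPM and a largest log2 difference of -1.10, for the endothelial gene *Myct1* at 0.501 to 1.03 against 0.245 to 0.436 CPM. The 96 higher genes had a median level of 28.8 CPM, and all genes tested 21.5 CPM. Their median exon lengths were 3087 bases for the lower genes, 3109.5 for the higher and 2971 for all. Over all genes, 6 differed by more than 1 on the log2 scale and 162 by more than 0.5.

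The response was then set beside those of mice that share no library with these 10: wild types of the GABA-CB1 line (strain label dlx5/6-cre x CB1f/f, 7 open field and 6 basal) and Glu-CB1-KO mice (7 and 7), all males of the same age with the same exposure. In the knockouts *Cnr1*, the deleted gene, stood at 228 ± 15.9 CPM (SD, n = 7) in basal and 222 ± 14.7 CPM (n = 7) in open field mice, below the 379 ± 27.6 CPM (n = 5) of basal Glu-CB1-WT mice, while by design other neurons keep it. For the GABA-CB1 line, the study's text gives the sizes of the open field wild-type and knockout groups the other way round from the labels, which are followed here. *Cnr1* was at 336 to 394 CPM in the 7 libraries labelled wild type and at 100.3 to 155 CPM in the 5 labelled knockout, with all 48 libraries scaled together. In these mice edgeR called 24 of 15116 genes (0.159%) and 11 of 15021 genes (0.0732%), counts that ranged from 9 to 53 and from 4 to 110 when 1 library was left out. All 24 and all 11 had the same sign in Glu-CB1-WT mice, where 17 and 8 of them had an unadjusted p under 0.05. The 6 genes called in both, *Fos*, *Egr2*, *Fosb*, *Egr4*, *Egr1* and *Errfi1*, are those described above. In the other direction, of the 96 genes that were higher without overlap in Glu-CB1-WT mice, 81 (84.4%) were also higher in GABA-CB1-WT and 86 (89.6%) in Glu-CB1-KO mice. For the 82 lower genes, 59 (72.0%) and 66 (80.5%) had the same sign. Over all genes tested, the sign was shared by 52.8% and 62.4%. The higher genes had a median log2 difference of 0.19 in Glu-CB1-WT, in which they were chosen, 0.11 in GABA-CB1-WT and 0.13 in Glu-CB1-KO mice. Those of the lower genes were -0.22, -0.05 and -0.06.

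The leading genes had these values in the 3 pairs of groups. *Egr2* had log2 differences of 2.62, 3.00 and 2.23 in Glu-CB1-WT, GABA-CB1-WT and Glu-CB1-KO mice, *Fos* of 2.13, 2.34 and 1.77, and *Fosb* of 1.49, 1.53 and 1.29. The difference in response between Glu-CB1-WT and GABA-CB1-WT mice was -0.39 for *Egr2* (95% interval -1.41 to 0.64) and -0.04 for *Fosb* (-0.54 to 0.47). Between Glu-CB1-WT and Glu-CB1-KO mice it was 0.39 for *Egr2* (-0.61 to 1.39) and 0.20 for *Fosb* (-0.37 to 0.77). These intervals leave room for differences of size in either direction. No gene had a different response at an adjusted p under 0.05 by edgeR. The counts were 0 of 15350 genes (0%) against GABA-CB1-WT and 0 of 15355 (0%) against Glu-CB1-KO mice. At an unadjusted p under 0.05 they were 864 and 379, while a share of 0.05 of the genes is 767.5 and 767.75. The lowest adjusted p was 0.605, for *Ly86*, a partner of an innate immune receptor, at 7.90 to 9.30 CPM in basal and 9.53 to 12.4 CPM in open field Glu-CB1-WT mice.

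**Figure D4:**
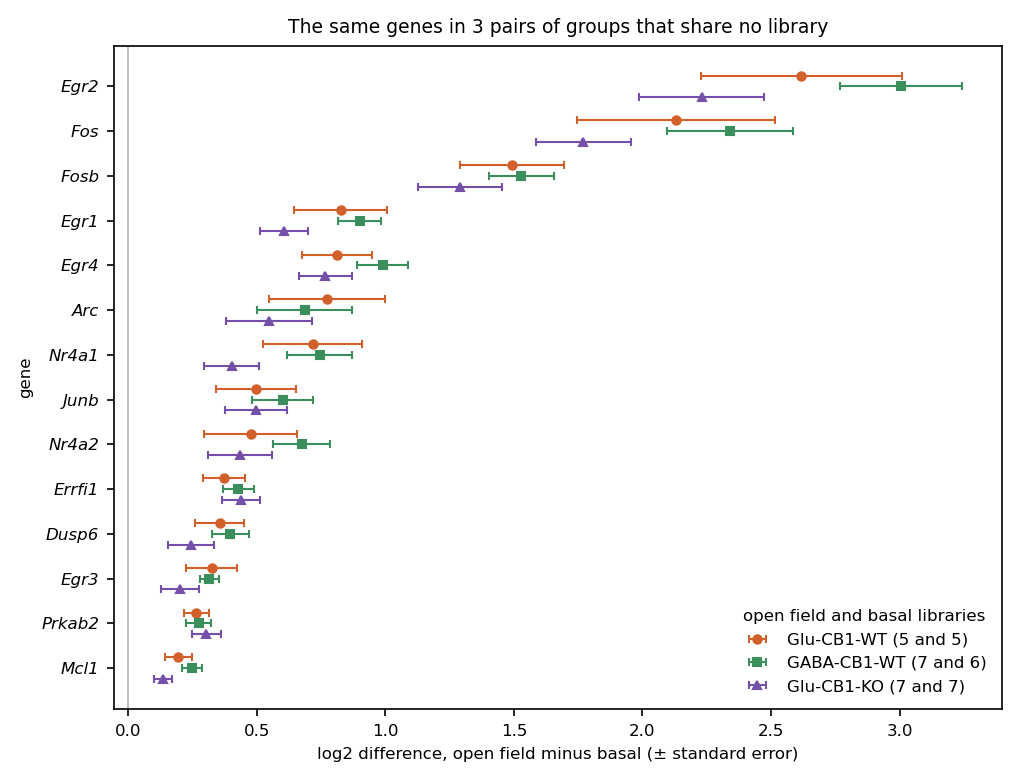
Log2 difference between open field and basal mice (horizontal axis, ± standard error) for 14 genes in Glu-CB1-WT (orange circles), GABA-CB1-WT (green squares) and Glu-CB1-KO mice (purple triangles), with the numbers of open field and basal libraries in the key. All 3 values of each gene lie above 0, and in Glu-CB1-WT mice they run from 2.62 for *Egr2* to 0.19 for *Mcl1*, an inhibitor of apoptosis. All of the 14 but *Arc* and *Junb* were called higher in GABA-CB1-WT mice, so that their sign there follows from the choice of genes. Other genes called there are not shown, among them *Slc7a1* and *Cyp51*, at 0.02 and 0.03 in Glu-CB1-WT mice.

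Of the 25 immediate early transcription factors, 11 were called in GABA-CB1-WT mice, *Fos*, *Fosb*, *Fosl2*, *Egr1*, *Egr2*, *Egr3*, *Egr4*, *Nr4a1*, *Nr4a2*, *Nr4a3* and *Klf10*, and 5 in Glu-CB1-KO mice. All 11 had a higher level in open field than in basal Glu-CB1-WT mice. The list's median was 0.44 in Glu-CB1-WT, 0.32 in GABA-CB1-WT and 0.29 in Glu-CB1-KO mice. In the same order of groups, effector genes were higher for 25, 24 and 21 of 30. Glucocorticoid-induced genes were higher for 23, 24 and 24 of 26, chaperones for 20, 22 and 23 of 23, and clock genes for 14, 15 and 15 of 19. Of all genes tested, 7313 of 14991, 7100 of 14958 and 7256 of 14923 were higher. The 5 lists that follow differed more between the groups in these counts. GABA genes were higher for 1 of 18 in Glu-CB1-WT, 13 of 18 in GABA-CB1-WT and 3 of 18 in Glu-CB1-KO mice, with medians of -0.07, 0.03 and -0.05. Glutamate receptors were higher for 7, 14 and 3 of 22, and endocannabinoid genes for 12, 2 and 4 of 13. Microglia markers were higher for 9, 0 and 1 of 10, and dentate granule cell markers for 5, 0 and 2 of 10. No member of these 5 lists was called in any of the 3 pairs of groups.

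The leading variation among the 10 libraries did not follow the open field. The first principal component of the 500 most variable genes held 34.2% of the variance and the second 15.1%, and neither separated the groups (exact permutation tests, two-sided, p = 0.619 and p = 0.714). With all genes in place of the 500, the same exact permutation test of the second component gave p = 0.0238. The first component set 4 libraries, whose labels end in a number under 850, at scores of 8.19 to 11.3, apart from the 6 libraries with a number over 850, at -10.0 to -2.72. The labels do not say what the numbers are. Basal replicates 1 and 3 and open field replicates 1 and 5 are the 4, so that both groups are on each side. *Grin2b*, a subunit of NMDA receptors, is among the genes that go with it, at 35.8 to 53.4 CPM in the 4 and 131 to 170.0 CPM in the 6 libraries. Its log2 difference of -0.19 between open field and basal mice had a 95% interval of -1.20 to 0.81.

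**Figure D5:**
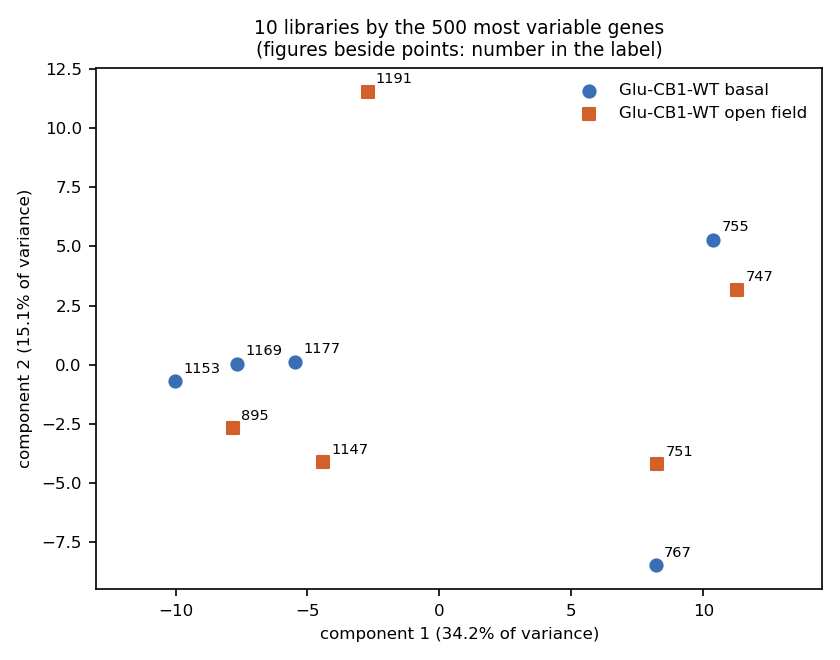
Scores of the 10 libraries on the first (horizontal, 34.2% of variance) and second (vertical, 15.1%) principal components, with basal mice as blue circles, open field mice as orange squares, and the last number of each label beside its point. The 4 libraries with numbers under 850 lie on the right, at scores from 8.19, with 2 of each group, and the other 6 on the left, with 3 of each.

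Within both sets of libraries, *Fosb*, *Egr2*, *Fos* and *Egr4* were higher after the open field. For *Fosb*, *Egr2* and *Egr4* any split gives this direction, because their groups do not overlap. For *Fos*, open field replicate 5 lay below basal replicate 2 alone, which is in the other set. The shared direction is thus no separate support, and only the sizes could differ. The log2 difference in mean level was 1.24 for *Fosb*, 1.87 for *Egr2*, 1.57 for *Fos* and 0.65 for *Egr4* among the 4 libraries with low numbers. Among the other 6 it was 1.46, 2.25, 2.00 and 0.81, in the same order of genes. The immediate early transcription factors were higher for 21 of 25 in the 4 libraries, with a median of 0.18, and for 23 of 25 in the 6, with a median of 0.48. Some genes were higher in the 6 but not in the 4: *Npas4* had differences of -0.13 in the 4 and 0.68 in the 6, *Sgk1*, a kinase induced by glucocorticoids, of -0.16 and 0.68, and *Fkbp5* of -0.0006 and 0.23. Microglia markers were higher for 10 of 10 in the 4 and 4 of 10 in the 6, and choroid plexus markers for 3 and 9 of 10. The sets were chosen after the components were seen, and whether their responses differ was not tested, with 2 mice of each group in the smaller one. With the range of the number as a covariate at the planned limit of 1000, edgeR's adjusted p was 0.0271 for both *Fosb* and *Egr2*. At 850, a limit chosen after the components were seen, it was 6.79e-04 for *Fosb* and 0.0108 for *Egr2*. These were the 2 genes called at each limit. The second component was led by the pituitary hormone genes *Gh* and *Prl*. *Gh*, the growth hormone gene, ranged from 0 to 41.3 CPM over the open field mice and from 2.14 to 24.8 CPM over the basal mice. The part of such tissue in the results was not tested, and *Gh* did not separate the groups.

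Choroid plexus transcripts varied between mice, and for all 10 markers the groups overlapped. *Ttr*, the transthyretin gene that defines this tissue, had 47.4, 15.7, 28.96, 19.4 and 18.97 CPM in basal and 29.3, 75.5, 55.8, 15.3 and 58.4 CPM in open field mice. Markers of choroid plexus and ependyma summed to between 63.7 and 111 CPM in basal and between 69.9 and 136 CPM in open field mice. Of the 10, 6 were higher, and the median log2 difference was 0.21. At an unadjusted p under 0.05, 2 of the 10 were higher, against 3.09% of all genes. Markers of oligodendrocytes and of astrocytes had medians of 0.05 and -0.01. The part of these tissues in the gene lists was not tested.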

How the data were processed

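RNA of CA tissue from 48 male mice was sequenced, and 10 libraries are described here. The authors amplified cDNA (NuGEN Ovation), aligned single reads to mm10 with STAR 2.6.0a and counted reads per gene with featureCounts 1.6.2 (versions per the submitters' processing notes). The values they deposited are raw counts, and 0 measurement columns lacked a sample. Groups came from the labels. Open field and basal libraries were compared by edgeR 4.0.16 (R 4.3.3; TMM, filterByExpr, quasi-likelihood test, Benjamini-Hochberg threshold 0.05), with the 10 libraries alone in the fit. Other pairs of groups were fitted alike, and differences between responses over both pairs. Standard errors and 95% intervals were derived from the F statistic. Components used log2 CPM (prior count 2). DESeq2 1.42.0 was an alternative. The fit was tested on simulated data.

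The members, lists and tests were chosen with earlier results of these data known. Named are genes called without overlap (up to 12 each way), list members called or, where none was, the 4 of smallest p, and genes the study measured by RT-qPCR. Others were named after their values were seen: genes in immune, pituitary and choroid statements, those called by DESeq2 or in other groups, and some known immediate early genes. Promoters were matched within 1000 bases of a gene's start. Reads have no molecular identifiers, and mice rather than reads set the errors given.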

Additional observations from a re-analysis of the deposited data

Results flagged for a closer look

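Among 214 sets of 5 values examined (95 genes and 12 marker sums in each of the 2 groups), 16 had 1 library apart from the other 4, by a gap of more than 0.71 of the range. Chance gives about 1 in 20 such sets. In open field mice, replicate 2 was high for *Hspa5* (394 CPM, others 219.9 to 243), *Manf* (42.4, others 27.96 to 31.97), *Herpud1* (52.6, others 45.4 to 46.1) and *Banp* (39.8, others 34.2 to 35.7). Replicate 3 was high for *Npas4* (24.05 CPM, others 8.81 to 10.8) and for the sum of subiculum and cortex markers (273 CPM, others 211 to 228). Replicate 5 was low for *Bdnf* (44.2 CPM, others 57.0 to 60.2) and high for the sum of microglia markers (517 CPM, others 411 to 437). *Myct1*, at a low level, was high in replicate 5 (0.436 CPM, others 0.245 to 0.292). Replicate 4 was high for *Zfp189* (41.1 CPM, others 37.2 to 38.3). In basal mice, replicate 2 was high for *Egr4* (6.83 CPM, others 5.58 to 5.76) and *Myct1* (1.03, others 0.501 to 0.649). Low values were those of replicate 3 for *Bdnf* (43.03 CPM, others 51.5 to 53.4), replicate 4 for *Zfp189* (31.3, others 33.1 to 33.8), and replicate 5 for *Gadd45b* (5.69, others 6.69 to 6.91) and *Ptpn1* (55.0, others 60.5 to 62.1). The cause was not tested.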

How the results depend on the processing

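The count of genes called in Glu-CB1-WT mice was 0 in edgeR with 10 libraries, with RLE scaling or at least 10 counts in each library. It was 22 with DESeq2, 2 with no filter beyond 1 count, 4 with the 24 libraries of the line in one fit and 6 with all 48. It was 2 with the number range as covariate at a limit of 1000, 2 at 850 (added after the data were seen), and 0 to 4 without 1 library (4 without open field replicate 5). With a replicate block 2 genes were called, *Tnfrsf25* and *Fosb*. Whether replicate numbers pair the mice is not given in the labels. Deviations of same-numbered libraries correlated at 0.45, 0.47, -0.22, 0.28 and -0.34. The positive values were those of replicates whose libraries lay on the same side of the first component. Hence these correlations cannot show whether the numbers pair the mice. In GABA-CB1-WT mice the count was 219 with DESeq2, 53 with all 48 libraries and 9 to 53 without 1 library (9 without basal replicate 4, 53 without open field replicate 5). In Glu-CB1-KO mice it was 173, 181 and 4 to 110 (110 without basal replicate 3). Both tests of a difference in response gave 0 throughout. The second component's exact permutation p was 0.0238 over all genes and 0.0238 (without open field replicate 4) to 0.849 without 1 library.

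Of 1803 alternative values of 95 named genes, 1738 kept their direction and side of the threshold, 44 (24 genes) passed it only in the alternative, and 21 (7 genes) changed sign. The log2 differences of these 7 have intervals that hold 0. *Tdo2* was at 0.0021 without filter, 0.0078 and 0.0045 with the covariate and 0.0063 with the replicate block. *Grin2b* was at 0.21 with the covariate at 1000. The ranges without 1 library were -0.13 to 0.23 for *Tdo2*, -0.42 to 0.022 for *Grin2b*, -0.14 to 0.0201 for *Adgrl2*, -0.056 to 0.11 for *Ptgs2*, -1.45 to 0.072 for *Gh*, -0.089 to 0.027 for *Jun* and -0.062 to 0.0103 for *Klf6*. The cause was not tested. With 5 mice a group, the 95% intervals above set the sizes that these data cannot tell from 0.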
